A study of Mus musculus with 12 samples.

Results

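The mitochondrial respiratory chain genes are the genes for the protein complexes that carry electrons to oxygen and make ATP in the inner mitochondrial membrane. They were chosen by symbol alone, as every gene in the count files named for a subunit of complexes I to V or cytochrome c, with the Ndufaf assembly factors of complex I that carry the same prefix. The rule found 111 of 26699 gene symbols, of which 98 were nuclear genes and 13 were encoded by mitochondrial DNA (mtDNA). After the filter on low counts 101 were tested among 11927 genes, 89 of them nuclear and 12 encoded by mtDNA.

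Electrons enter the chain at complex I (NADH dehydrogenase) or complex II (succinate dehydrogenase), pass through complex III, cytochrome c and complex IV (cytochrome c oxidase), and the proton gradient they build drives complex V (ATP synthase). Every complex but complex II is assembled from subunits of both genomes. The mtDNA-encoded mRNAs are cut from long transcripts that are read from both strands of the mitochondrial genome. Macrophages shift between oxidative phosphorylation and glycolysis when they are activated, which makes this chain a common readout of their state.

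Whole synovium, the membrane that lines the joint, was dissected from adult wild-type C57BL/6 mice and kept ex vivo for 4 h with 100 nM calcitonin gene-related peptide (CGRP), a neuropeptide of pain fibres, or with vehicle. The tissue was then digested with collagenase, and macrophages carrying MHC class II were sorted into a CD11c- subset (labelled IAIE) and a CD11c+ subset (labelled CD11c). Each of the 4 groups, IAIE control, IAIE CGRP, CD11c control and CD11c CGRP, held 3 libraries, and the labels do not say whether the 3 came from separate animals, so p-values measure the spread between these libraries. The peptide was given to whole explants, so the sorted cells were exposed together with all other cells of the tissue.

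The libraries held 2127191 to 5649698 counts. A count of 0 allowed a level of up to 0.531 to 1.41 counts per 1000000 of the library total, for counting error only. Gene levels are given in CPM, counts per 1000000 of the library's effective size. That size is the sum over the tested genes times a scaling factor (TMM). All 12 macrophage markers were detected in every group, and Itgax, the gene for CD11c, averaged 6.19 CPM in IAIE control and 236.6 CPM in CD11c control. The markers did not all differ in the same direction. Between the control libraries 4 were called higher in CD11c cells and 7 lower by edgeR, the test described below. In IAIE control and CD11c control, Csf1r averaged 1439 and 594.9 CPM, C1qa 667.2 and 192.1, and H2-Ab1 3896 and 10590. Summed fibroblast markers (9 genes) ranged from 169 to 1390 CPM in IAIE control, 53 to 1570 in IAIE CGRP, 24.5 to 35.6 in CD11c control and 80.8 to 389 in CD11c CGRP. Skeletal muscle, a tissue rich in these genes, was near 0: the 8 muscle markers in the files together reached at most 15.3 CPM in a library.

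Part of the mtDNA is also present as near-identical copies in the nuclear genome. For each gene, every stretch (word) of 100 bases of its exons was looked up in all other annotated genes. A stretch of mouse chromosome 1 carried copies of mt-Co2, mt-Co3, mt-Atp6 and mt-Nd4l that were 100% identical over the compared bases, and a copy of mt-Nd3 (Gm28438) that differed at 1 base of 345. The start of mt-Nd3 is shown because it holds the single difference. Its first 120 bases lie at chrM:9459.0-9578.0 (GRCm38, plus strand), and the capital marks the one differing base, T3C, with the position counted from 1 at the 5′ end of mt-Nd3 and the mtDNA base first.
mt-Nd3: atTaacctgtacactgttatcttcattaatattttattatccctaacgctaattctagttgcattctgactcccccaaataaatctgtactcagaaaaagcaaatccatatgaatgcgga
Reads from such genes fit both places, and how reads with 2 matches were counted is not given in the sources used here.

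The levels of the mtDNA-encoded genes fell into groups by shared sequence. In IAIE control the mean level per kb of exon was 2129 CPM for mt-Co1 (30.8% of its words shared), 987.8 for mt-Cytb, 750.3 for mt-Nd5, 716.5 for mt-Nd1, 471.8 for mt-Nd6 (none shared) and 437.3 for mt-Nd2 (3.20% shared). The level of mt-Nd4, with 60.8% of its words shared, was 500.0 CPM per kb. The 5 genes with over 97% shared words were far lower, at 67.5 CPM per kb for mt-Atp6, 31.8 for mt-Co2, 31.7 for mt-Nd3, 21.6 for mt-Nd4l and 21.3 for mt-Co3. Their chromosome 1 copies also received counts. Summed with the chromosome 1 copies of mt-Co1 and mt-Nd4, the levels were 111.3 to 226 CPM over the 12 libraries. The small mt-Atp8 shared no word but had 2 to 11 counts a library and was not tested; 21.1% of its bases overlap mt-Atp6.

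**Figure D1:**
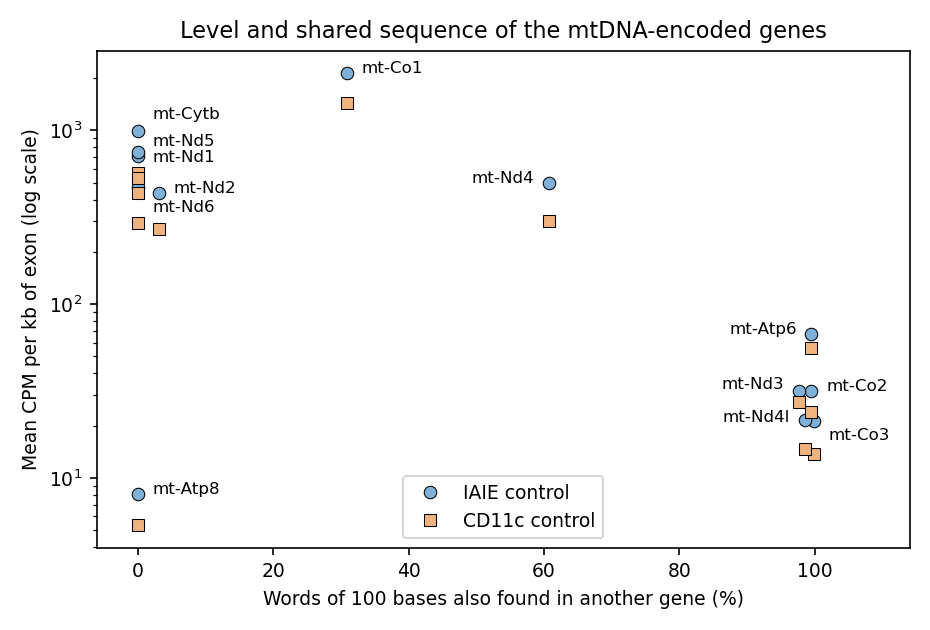
Mean level of the 13 mtDNA-encoded genes (CPM per kb of exon, log scale) against the share of their words of 100 bases that also occur in another annotated gene (%), in the IAIE control (circles) and CD11c control (squares) libraries. The 5 genes with over 97% shared words sit at 13.8 to 67.5 CPM per kb, while the 7 other tested genes sit at 271.7 CPM per kb or above.

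The first comparison asked how the CD11c+ and CD11c- subsets differed without CGRP. The nuclear and the mtDNA-encoded genes differed in opposite directions. Of the 89 nuclear genes tested, 20 were higher in CD11c cells and 0 were lower, with a median log2 fold change of 0.46 and 75 values above 0. Among all genes tested 21.2% were called, 10.2% higher and 10.9% lower, with a median of -0.02. Of the 12 mtDNA-encoded genes tested, 7 were lower in CD11c cells and 0 were higher, all 12 log2 fold changes were below 0, and their median was -0.59. All calls are from edgeR's quasi-likelihood test at a Benjamini-Hochberg adjusted p under 0.05 over all genes tested, and in sorted bulk samples fewer cells of one type and less RNA per cell cannot be told apart.

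The same was visible in the raw shares of counts. The 13 mtDNA-encoded mRNAs took 0.801%, 0.778% and 0.906% of the counts in the IAIE control libraries and 0.520%, 0.555% and 0.496% in the CD11c control libraries. The 98 nuclear genes took 0.300%, 0.286% and 0.267% in IAIE control and 0.413%, 0.378% and 0.403% in CD11c control. Neither pair of groups overlapped. Counts of mtDNA-encoded mRNA per count of nuclear mRNA were 2.93 ± 0.408 (SD, n = 3) in IAIE control and 1.32 ± 0.128 in CD11c control. The mitochondrial ribosomal RNAs, also encoded by mtDNA, made up 9.32% to 11.03% of counts in IAIE control and 7.12% to 8.27% in CD11c control.

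**Figure D2:**
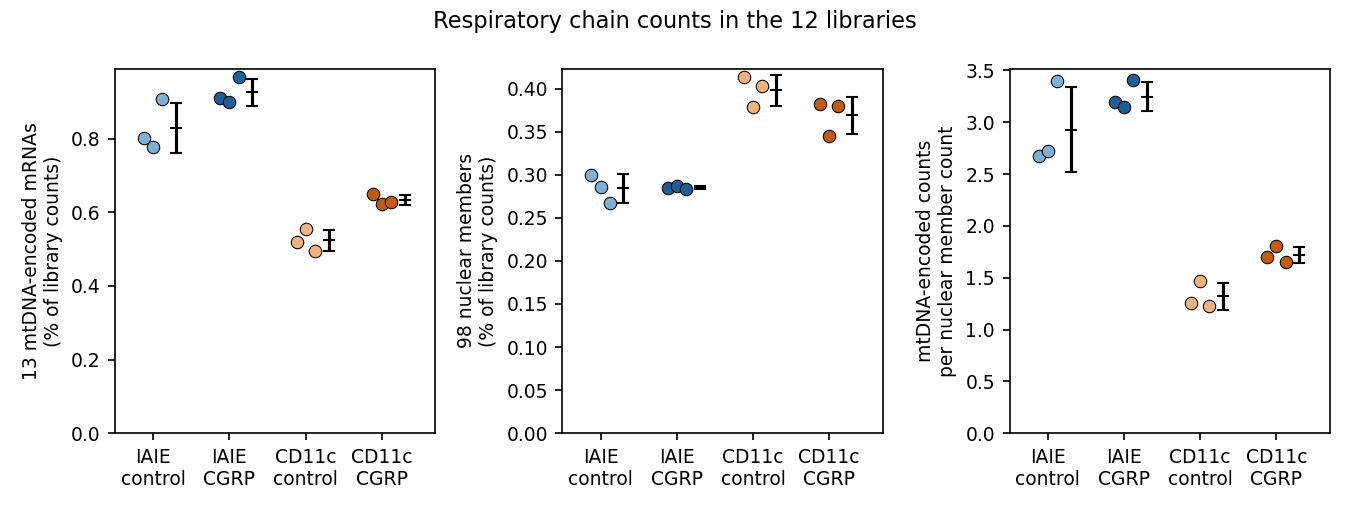
Share of library counts (%) in the 13 mtDNA-encoded mRNAs (left) and the 98 nuclear genes (middle), and the ratio of the former counts to the latter (right), for each of 12 libraries (points), with the mean and SD of each group of 3 beside them. The mtDNA-encoded share lies at 0.778% to 0.967% in the 6 IAIE libraries and at 0.496% to 0.650% in the 6 CD11c libraries, and the nuclear share at 0.267% to 0.300% and 0.345% to 0.413%.

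The 7 mtDNA-encoded calls covered complexes I, III and IV. The level of mt-Cytb, the only mtDNA-encoded subunit of complex III, was 1136, 995.7 and 1258 CPM in IAIE control and 639.7, 657 and 652 CPM in CD11c control. The groups did not overlap, and the log2 fold change was -0.80 ± 0.11 (SE, adjusted p = 3.28e-05). The level of mt-Nd5, a proton-pumping subunit of complex I, was 1387, 1299 and 1420 CPM in IAIE control and 844.4, 863.7 and 681 CPM in CD11c control, a log2 fold change of -0.78 ± 0.11 (adjusted p = 5.3e-05). The level of mt-Co1, the catalytic subunit of complex IV, was 3352, 3064 and 3449 CPM in IAIE control and 2149, 2398 and 2116 CPM in CD11c control. It fell by 0.57 ± 0.10 on the log2 scale (adjusted p = 0.000454).

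The other called complex I genes of mtDNA were mt-Nd4 (log2 fold change -0.74 ± 0.13), mt-Nd6 (-0.69 ± 0.13), mt-Nd2 (-0.69 ± 0.13) and mt-Nd1 (-0.43 ± 0.12). The gene mt-Nd6 is the only one of the 13 read from the other strand, and whether the counting used strand is not given in the sources used here, so its reads and antisense reads cannot be told apart. All 6 tested genes with under 50% shared words were lower, with a median of -0.69, and 1 of the 6 with more (mt-Nd4) was, with a median of -0.47. The members not called were mt-Co3 (-0.62 ± 0.29), mt-Nd4l (-0.55 ± 0.43), mt-Co2 (-0.40 ± 0.27), mt-Atp6 (-0.28 ± 0.17) and mt-Nd3 (-0.24 ± 0.33). These had 11 to 354 counts a library, against 392 to 23328 for the called ones. In all, 9 of the 12 had groups that did not overlap, all lower in CD11c, against 17.5% of all genes.

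Complex V held the most calls among the nuclear genes, 10 of its 17 nuclear genes, all higher in CD11c cells. The complex I subunits had 4 of 38, the complex I assembly factors 0 of 8, complex II 1 of 4, complex III 2 of 9 and complex IV 3 of 11, all higher, and cytochrome c (Cycs) was not called. The 32 nuclear genes whose CD11c control libraries all lay above the IAIE control libraries, and 1 whose libraries all lay below (Ndufb4, named after its values were seen), compare with 16.7% and 17.5% of all genes.

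**Figure D3:**
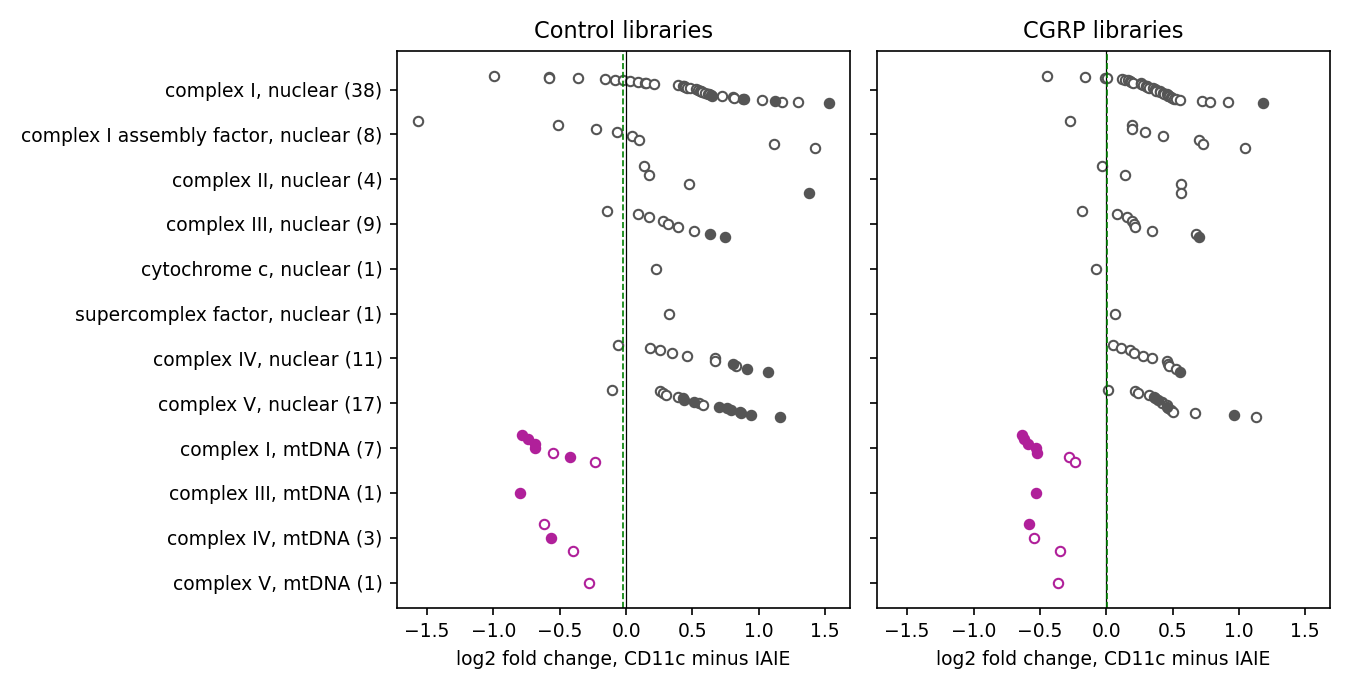
Log2 fold change between CD11c and IAIE cells for every tested gene in the control (left) and CGRP (right) libraries, by complex and genome, with the number of genes in brackets. Filled points passed an adjusted p of 0.05 and open points did not; the dashed line is the median of all genes tested. The 12 mtDNA-encoded genes all lie below 0 in both panels, while 75 and 82 of the 89 nuclear genes lie above 0.

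In complex V both genes of the catalytic core were higher in CD11c cells. The level of Atp5b, which encodes the catalytic beta subunit, was 394.6, 329.1 and 348.7 CPM in IAIE control and 505.4, 461.6 and 486.2 CPM in CD11c control, 1.35-fold higher (log2 0.44 ± 0.11, adjusted p = 0.0095). The level of Atp5a1, for the alpha subunit, was 273.3, 281.2 and 256.5 CPM against 334.9, 380.9 and 377.6 CPM, also 1.35-fold higher (log2 0.43 ± 0.11, adjusted p = 0.00967). Neither gene's groups overlapped. The largest log2 fold changes in the complex were 1.16 ± 0.32 for Atp5g2, one of the genes for the rotating c-ring, and 0.94 ± 0.17 for Atp5h, a part of the stalk that holds the enzyme still. The level of Atp5h was 84.1, 61.1 and 47.5 CPM in IAIE control and 123.6, 127.4 and 120.4 CPM in CD11c control. The stalk gene Atp5j (0.51 ± 0.15) and the rotor gene Atp5e (0.86 ± 0.29) were called as well. The last 4 calls, named after their values were seen, were Atp5l (0.86 ± 0.23), Atp5d (0.79 ± 0.17), Atp5o (0.76 ± 0.18) and Atp5mpl (0.70 ± 0.22).

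In complex I the calls included accessory subunits. The largest was Ndufa9, at 9.93, 8.03 and 10.3 CPM in IAIE control and 31.4, 23.6 and 26.6 CPM in CD11c control, 2.89-fold higher (log2 1.53 ± 0.28, adjusted p = 0.000481). The log2 fold changes of the accessory genes Ndufa6 and Ndufa13 were 1.12 ± 0.20 and 0.89 ± 0.20. Of the exon bases of Ndufa13, 30.0% also lie in a gene on the opposite strand. Whether the counting used strand is not given in the sources used here. The core genes Ndufs1 (0.03 ± 0.27) and Ndufv1 (0.80 ± 0.29, adjusted p = 0.055) were not called.

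In complex II, Sdhd, which encodes a membrane anchor, was at 19.9, 7.74 and 15.7 CPM in IAIE control and 38.4, 35.8 and 37.8 CPM in CD11c control. Its log2 fold change was 1.38 ± 0.26 (adjusted p = 0.000784), while the catalytic subunits Sdha (0.13 ± 0.15) and Sdhb (0.47 ± 0.21) were not called. In complex III, Uqcrfs1, which encodes the Rieske iron-sulfur protein, was at 53.4, 51.9 and 45.2 CPM against 91.8, 83.5 and 77.7 CPM, 1.67-fold higher (log2 0.74 ± 0.15, adjusted p = 0.00122). The small subunit Uqcrq was also called (0.63 ± 0.18), and Uqcrc1 (0.31 ± 0.16) and Cyc1 (0.51 ± 0.23) were not. In complex IV the calls were small structural subunits: Cox8a (1.07 ± 0.19), Cox7b (0.91 ± 0.18) and, named after its values were seen, Cox6c (0.80 ± 0.17). The isoforms Cox4i1 (0.35 ± 0.15), Cox5a (0.67 ± 0.28), Cox6a1 (0.18 ± 0.20), Cox6b1 (0.83 ± 0.32) and Cox7a2 (0.26 ± 0.40) were not called, nor were Ndufa4 (0.46 ± 0.32) and Cox7a2l (0.33 ± 0.20).

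The members below the filter were mainly the isoforms of other tissues. Cox6a2, Cox7a1 and Cox8b, the heart and muscle forms, Cox4i2 and Ndufa4l2, forms known from lung and from low oxygen, and Cox6b2, the testis form, did not exceed 3.26 CPM in any library. With mt-Atp8, Cox6c2, Ndufa11b and Ndufs6b they make up the 10 genes not tested.

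With 1 library left out at a time, 13 of the 20 nuclear and 6 of the 7 mtDNA-encoded calls held in all 12 fits, and the count of nuclear calls ranged from 14 to 23. The calls lost in some of these fits included Atp5e (4 fits), Atp5mpl (4), mt-Nd1 (3), Atp5g2 (2), Atp5j (2), Uqcrq (2) and Atp5l (1), each in the direction given. Fibroblast markers were higher in IAIE control than in CD11c control, as given above, and their part in these differences was not tested.

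Promoters are shown for 3 of the 6 nuclear genes that were higher in CD11c cells in both the control and the CGRP libraries. Motifs of 3 kinds of factor long known from promoters of such genes were searched on both strands from 250 bases before to 50 bases after the annotated start, in RefSeq sequence of GRCm38.p6. The core motif of NRF1, a palindrome of 10 bases, was present for 9.09% of the 77 nuclear genes with a promoter sequence and for 1.07% of all 27025 genes. The ETS-family core CCGGAAG was present for 24.7% and 9.93%, and the YY1 core AAGATGGC for 14.3% and 3.19%. Motifs do not overlap each other in the sequences shown. Capitals mark matches: the ETS core on the opposite strand in Atp5e (chr2:174464052-174464351, minus strand), and the YY1 core followed by the ETS core in 1 of the 2 starts of Atp5j (chr16:84834927-84835226, minus strand). The Uqcrfs1 window (chr13:30545267-30545566, minus strand) held none of these letters. The windows of Atp5b and Cox7b held none either and, with that of Atp5a1, are not shown.
Atp5e: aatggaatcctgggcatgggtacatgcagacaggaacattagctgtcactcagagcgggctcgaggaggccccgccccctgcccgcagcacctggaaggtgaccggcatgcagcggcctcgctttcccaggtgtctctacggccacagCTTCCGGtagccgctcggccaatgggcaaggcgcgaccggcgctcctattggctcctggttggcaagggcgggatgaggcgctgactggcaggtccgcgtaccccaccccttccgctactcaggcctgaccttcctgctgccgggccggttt
Atp5j: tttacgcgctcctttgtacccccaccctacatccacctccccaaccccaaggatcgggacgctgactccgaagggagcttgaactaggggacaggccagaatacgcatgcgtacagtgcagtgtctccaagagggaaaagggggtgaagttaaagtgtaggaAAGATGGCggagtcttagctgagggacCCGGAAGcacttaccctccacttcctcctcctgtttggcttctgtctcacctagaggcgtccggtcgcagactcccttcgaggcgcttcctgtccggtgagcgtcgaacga
Uqcrfs1: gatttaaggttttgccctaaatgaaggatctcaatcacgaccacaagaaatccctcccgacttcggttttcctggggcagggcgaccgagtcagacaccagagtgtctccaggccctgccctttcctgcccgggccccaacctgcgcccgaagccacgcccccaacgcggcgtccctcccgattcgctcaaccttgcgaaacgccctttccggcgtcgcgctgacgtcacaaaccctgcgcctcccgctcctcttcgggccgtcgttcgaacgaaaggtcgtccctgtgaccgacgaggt
Of the 20 nuclear genes called higher in CD11c control, 15 had a promoter sequence, and 6 of these held the ETS core, 2 the YY1 core and 1 the NRF1 core.

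The second comparison of the subsets used the CGRP libraries, which share no library with the first. There 7 nuclear genes were higher in CD11c cells and 0 were lower, with a median log2 fold change of 0.37 and 82 of 89 values above 0. Among all genes 8.36% were called higher and 8.51% lower. The nuclear genes called, all of them higher, were 7.87% of those tested, near the 8.36% of all genes called higher and below the 16.9% called in either direction. Again 7 of the 12 mtDNA-encoded genes were lower and 0 were higher, with a median of -0.53. Of the mtDNA-encoded calls all 7 were the same genes in both comparisons, and 6 nuclear genes were called in both, 30.0% of the control calls and 85.7% of the CGRP calls.

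These 6 were Atp5a1, Atp5b, Atp5e, Atp5j, Cox7b and Uqcrfs1. The level of Uqcrfs1 was 51.6, 51.5 and 52.8 CPM in IAIE CGRP and 82.3, 91.6 and 79.5 CPM in CD11c CGRP, a log2 fold change of 0.70 ± 0.14 (adjusted p = 0.00176). The seventh nuclear call was Ndufv3, an accessory gene of the NADH-binding part of complex I, at 12.7, 11.9 and 14.5 CPM against 34.5, 23.5 and 31.0 CPM (log2 1.18 ± 0.27, adjusted p = 0.00353). Ndufa9 and Sdhd, called in the control libraries, had log2 fold changes of 0.16 ± 0.26 and 0.56 ± 0.24 here.

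Among the mtDNA-encoded genes the largest differences were -0.64 ± 0.11 for mt-Nd5 (adjusted p = 0.000412), -0.62 ± 0.13 for mt-Nd6 and -0.59 ± 0.13 for mt-Nd4. The level of mt-Nd5 was 1677, 1788 and 1838 CPM in IAIE CGRP and 1097, 1174 and 1138 CPM in CD11c CGRP, with no overlap. Of the 12 genes, 10 did not overlap between the groups, all lower in CD11c, against 17% of all genes; of the 89 nuclear genes 27 lay wholly higher and 1 wholly lower, against 17.8% and 17%. Fibroblast marker sums overlapped between these 2 groups, but single markers differed: the fibroblast gene Dcn was higher in CD11c CGRP (log2 2.79 ± 0.69, adjusted p = 0.00734), as was the chondrocyte gene Comp (5.52 ± 0.995, adjusted p = 0.00051), and their part in these differences was not tested. With replicate number within each treatment as a block, 9 nuclear genes were called in place of 7. The labels do not say that equal numbers share an explant. The added genes were Atp5d (adjusted p = 0.0475) and, named after its values were seen, Ndufb11 (adjusted p = 0.0301). The 7 mtDNA-encoded calls and 2 nuclear calls, Uqcrfs1 and Ndufv3, held in all 12 fits with 1 library left out. The nuclear count fell to 3 without IAIE CGRP replicate 1 or 2, 4 without IAIE CGRP replicate 3 or CD11c CGRP replicate 3, and 2 without CD11c CGRP replicate 1.

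Within each subset, CGRP and control libraries differed in fewer of these genes. In IAIE cells 4 of 89 nuclear genes were higher with CGRP and 0 were lower, with a median log2 fold change of 0.10, and 2 of 12 mtDNA-encoded genes were higher, with a median of 0.21. Among all genes 9.21% were called, 5.32% higher and 3.89% lower. The nuclear genes called, all of them higher, were 4.49% of those tested, near the share of all genes called higher and below that called in either direction. The nuclear calls came from complexes I, II, III and V. Of the 7 fibroblast markers tested, 3 fell with CGRP in IAIE cells (log2 fold changes of -3.05 for Col1a1, -2.52 for Col3a1 and -2.37 for Col1a2). The median log2 fold change over the 7 was -2.08, with 1 value above 0 (4.57). In IAIE control the SDs of the 3 exceeded their means, at 265.6 ± 351.4, 162.9 ± 171.5 and 121 ± 141.2 CPM in that order. The part of the fibroblast markers in the CGRP differences was not tested.

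The largest was Atp5md, a small membrane subunit of ATP synthase, at 8.07, 4.59 and 10.7 CPM in IAIE control and 15.9, 23.3 and 16.8 CPM in IAIE CGRP (2.44-fold, adjusted p = 0.0286). The levels of Ndufa9 in IAIE CGRP were 15.9, 19.2 and 18.9 CPM, above all 3 control libraries given above (log2 0.94 ± 0.28, adjusted p = 0.0371). Those of Sdhd were 24.4, 29.4 and 27.5 CPM (0.92 ± 0.26, adjusted p = 0.0313). Those of Uqcrq were 52.1, 52.5 and 38.5 CPM in control and 75.2, 79.9 and 68.6 CPM with CGRP (0.64 ± 0.18, adjusted p = 0.0311). Ndufa9, Sdhd and Uqcrq were also higher in CD11c control than in IAIE control, a comparison that shares the IAIE control libraries with this one.

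Of the mtDNA-encoded genes, mt-Co1 rose from 3352, 3064 and 3449 CPM to 4281, 4411 and 4399 CPM (1.33-fold, log2 0.41 ± 0.10, adjusted p = 0.0132). The level of mt-Nd5 rose from 1387, 1299 and 1420 CPM to 1677, 1788 and 1838 CPM (1.29-fold, log2 0.37 ± 0.11, adjusted p = 0.0442). The others ranged from -0.03 ± 0.28 for mt-Co3 to 0.49 ± 0.16 for mt-Atp6, with mt-Cytb at 0.03 ± 0.11. Of the 12, 4 did not overlap between the groups, all higher with CGRP, against 12.9% of all genes; the nuclear genes had 12 higher and 2 lower, against 12.9% and 12%.

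In CD11c cells 0 of 89 nuclear genes were higher with CGRP and 1 was lower, with a median log2 fold change of -0.06, and 3 of 12 mtDNA-encoded genes were higher, with a median of 0.33. Among all genes 10.9% were called, 6.29% higher and 4.59% lower. The lower gene was Ndufa13, which encodes an accessory subunit of complex I also known as GRIM-19, at 94.2, 65.7 and 77.7 CPM in control and 54.3, 50.5 and 45.4 CPM with CGRP (log2 -0.66 ± 0.20, adjusted p = 0.0376). Its overlap with a gene on the opposite strand, given above, applies here too. The level of mt-Nd5 rose from 844.4, 863.7 and 681 CPM to 1097, 1174 and 1138 CPM (1.43-fold, log2 0.51 ± 0.11, adjusted p = 0.00453). That of mt-Nd6 rose from 159.9, 149.2 and 145.9 CPM to 201.8, 211.9 and 204.4 CPM (log2 0.44 ± 0.13, adjusted p = 0.0338), and that of mt-Co1 from 2149, 2398 and 2116 CPM to 2970, 3042 and 2732 CPM (log2 0.39 ± 0.10, adjusted p = 0.0154).

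All 12 log2 fold changes of the mtDNA-encoded genes were above 0 in CD11c cells, and 7 of the 12 did not overlap between the groups, against 15.4% of all genes; the nuclear genes had 6 higher and 6 lower, against 15.4% and 13.8%. The mtDNA-encoded share of counts was 0.520%, 0.555% and 0.496% in CD11c control and 0.650%, 0.623% and 0.628% in CD11c CGRP, with no overlap. In IAIE cells it was 0.778% to 0.906% in control and 0.901% to 0.967% with CGRP, which overlapped. Mitochondrial ribosomal RNA was 7.12% to 8.27% and 8.15% to 9.37% of counts in CD11c control and CGRP. Summed fibroblast markers were also higher with CGRP in CD11c cells, at 24.5 to 35.6 CPM in control and 80.8 to 389 CPM with CGRP, as were the 6 chondrocyte markers in the files, at 2.34 to 6.44 and 8.54 to 255 CPM, and their part in these differences was not tested.

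**Figure D4:**
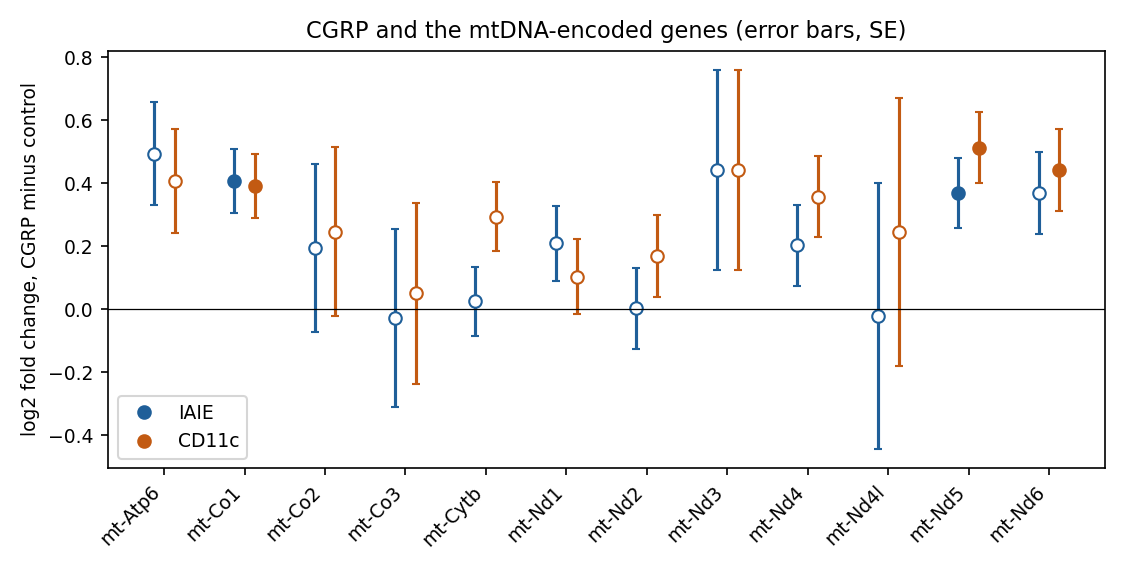
Log2 fold change with CGRP (CGRP minus control) of the 12 tested mtDNA-encoded genes in IAIE and CD11c cells, with bars of 1 standard error from the fit. Filled points passed an adjusted p of 0.05 and open points did not; mt-Co1 and mt-Nd5 are filled in both subsets, mt-Nd6 in CD11c cells.

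The mtDNA-encoded calls of CGRP did not hold under every setting. With offsets for GC content and exon length 0 of the 12 were called in either subset, and the medians were 0.04 in IAIE and 0.17 in CD11c cells, while the 7 calls of each comparison between subsets stayed at 7. In IAIE cells, leaving out 1 library gave 0 nuclear calls without IAIE CGRP replicate 2, 1 without IAIE control replicate 2 or IAIE CGRP replicate 3, and 2 without IAIE control replicate 3 or IAIE CGRP replicate 1. The IAIE mtDNA-encoded calls were 0 without IAIE control replicate 2, and 1 without IAIE control replicate 1 or any one IAIE CGRP replicate. In CD11c cells Ndufa13 was lost without CD11c control replicate 1 or 3 or CD11c CGRP replicate 2 or 3. The CD11c mtDNA-encoded calls were 0 without CD11c control replicate 3, and 1 without CD11c control replicate 1 or CD11c CGRP replicate 1 or 2.

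Whether the effect of CGRP differed between the subsets was tested as an interaction. By edgeR 0 of the 101 genes passed, against 0.151% of all genes (0.134% higher and 0.0168% lower), and DESeq2 and limma-voom also called 0. At an unadjusted edgeR p under 0.05 there were 5 of 89 nuclear and 0 of 12 mtDNA-encoded genes, against 1049 of all 11927 genes. Ndufa9 had a difference of effects (CD11c minus IAIE) of -1.37 ± 0.38 on the log2 scale (adjusted p = 0.177), and mt-Nd5 one of 0.14 ± 0.16.

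Few genes of the other mitochondrial lists were called. The list for the tricarboxylic acid cycle, which feeds electrons to the chain, also held pyruvate dehydrogenase, the step before the cycle. Of its 18 genes tested, 1 was higher in CD11c control than in IAIE control (Mdh2, malate dehydrogenase, log2 0.44 ± 0.14). Pdhb, a subunit of pyruvate dehydrogenase, was lower (-0.61 ± 0.20). That is 11.1% called against 21.2% of all genes. In the other comparisons 0 were called. For CGRP in IAIE cells 5 of the 18 had an unadjusted edgeR p under 0.05, against 2601 of all 11927 genes. Of 32 assembly factors outside the naming rule, 3 (9.38%, against 10.2% of all genes) were higher in CD11c control: Timmdc1 (1.57 ± 0.45) for complex I, Uqcc2 (1.20 ± 0.30) for complex III and Tmem70 (1.19 ± 0.35) for complex V. With CGRP, Sco1, a copper carrier of complex IV, was higher in IAIE cells (1.56 ± 0.47), and Higd1a was higher in CD11c cells (1.35 ± 0.23), each 3.12% of the list against 5.32% and 6.29% of all genes called higher.

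Of 18 regulators of mitochondrial genes and of mtDNA, only Pprc1, a coactivator of the PGC-1 family, was called in any of the comparisons, or 5.56% of the list against 3.89%, 4.59% and 8.51% of all genes called lower in the comparisons that follow. Its level fell with CGRP by 0.71 ± 0.17 on the log2 scale in IAIE cells (adjusted p = 0.00990) and by 0.92 ± 0.17 in CD11c cells (adjusted p = 0.00111), and it was lower in CD11c than in IAIE cells in the CGRP libraries (-0.69 ± 0.17). Of 13 genes that process mitochondrial mRNA, 0 were called by edgeR in any comparison, with 1 or 2 at an unadjusted p under 0.05 in each. Over all 11927 genes such values numbered from 1049 (interaction) to 3820 (subsets in the control libraries).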

How the data were processed

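Libraries were made with a stranded total RNA kit and sequenced as paired ends. Per the labels and methods, the authors trimmed reads with Trim Galore, aligned them to mm10 with HISAT2 and deposited raw read counts per gene symbol from featureCounts; versions, annotation and strand setting are not given in the sources used here. A combined table repeats the counts, and its 6 columns of no sample listed here were not used.

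All 12 libraries were fitted with 1 mean per group in edgeR 4.0.16 (R 4.3.3; TMM, filterByExpr with a minimum count of 10 and total of 15, quasi-likelihood test, Benjamini-Hochberg over 11927 genes, threshold 0.05). CPM values are counts per 1000000 of each library's effective size, its total over the tested genes times the TMM factor. The bound for a gene without counts and, unless stated, the percent shares use the library total over all genes. Fold changes carry the standard error of the fit. Library totals ranged from 2127191 to 5649698 counts, and precision was limited by 3 libraries a group. In IAIE cells the totals were 2127191 to 3310825 in control and 4009081 to 5364559 with CGRP, which did not overlap. In CD11c cells they were 2455650 to 4465508 and 4329993 to 5649698, which overlapped. Exon lengths, coordinates and shared words came from GENCODE on GRCm38, with 109 of the 111 genes matched. The script was tested on simulated counts for sign, bias and false calls; a minimum share of recovered changes, required at first, was not met and was then dropped. Part of the known changes were not called in that test, so a gene not called may still differ.

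The genes and lists were chosen with earlier results of these data known. Genes named were all mtDNA-encoded members, core subunits and tissue isoforms, and up to 8 called members a direction per comparison with a mean of at least 5 CPM, and up to 3 a direction for other lists; some results are not reported here. Replicate numbers were checked for pairing by correlating deviations from group means over 5247 genes. Between the subsets in the CGRP libraries the correlations were 0.293, 0.184 and 0.226, so every value exceeded the cut of 0.1 that was used. Such values do not show that equal numbers share an explant, and the labels do not say so. In the control libraries the correlations were 0.17, 0.0566 and 0.147, and between CGRP and control -0.0847 to 0.128, which do not meet the cut. The main fit used no pairing, and fits with replicate blocks are given separately. Alternatives were other scalings and filters, DESeq2 1.42.0, limma-voom (limma 3.58.1), 1 surrogate variable (sva 3.50.0), blocks, each library left out, and, chosen after seeing the data, thinning to 2127191 counts and offsets for GC content and exon length (98.7% of genes had both).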

Additional observations from a re-analysis of the deposited data

How the results depend on the processing

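Between the subsets, the median of the mtDNA-encoded genes stayed below 0 and their count of calls within 1.5 times under every alternative run, though single genes did not (mt-Nd3, given below). With 1 library left out the control comparison gave 6 to 7 mtDNA-encoded calls (median -0.66 to -0.51) and 14 to 23 nuclear calls (median 0.41 to 0.58), and the CGRP libraries gave 7 to 7 (-0.55 to -0.50) and 2 to 9 (0.27 to 0.42). The nuclear count in the CGRP libraries was 12 with at least 10 counts in every library, 14 by limma-voom and 3 with 1 surrogate variable. For CGRP in IAIE cells, nuclear calls were 2 by limma-voom and 1 with the offsets for GC content and exon length, and 0 to 4 with 1 library left out (median 0.03 to 0.17); mtDNA-encoded calls were 1 by RLE and by upper-quartile scaling, 0 with the offsets (median 0.038) and 0 to 3 with 1 library left out (median 0.16 to 0.40, the highest without IAIE control replicate 3). For CGRP in CD11c cells, nuclear calls were 2 with at least 10 counts in every library, 2 by DESeq2, 3 by limma-voom and 0 to 2 with 1 library left out (median -0.14 to -0.0002715); mtDNA-encoded calls were 5 by limma-voom, 0 with the offsets (median 0.17) and 0 to 3 with 1 library left out (median 0.24 to 0.34). The interaction stayed at 0 calls, with medians of -0.24 to -0.066 (nuclear) and -0.05 to 0.14 (mtDNA-encoded) with 1 library left out. The cause of these changes was not tested.

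Without the mitochondrial ribosomal RNA in the denominator, which enlarges every share, the mtDNA-encoded and nuclear shares were 0.920% and 0.316% in IAIE control, 1.04% and 0.321% in IAIE CGRP, 0.567% and 0.431% in CD11c control, and 0.693% and 0.404% in CD11c CGRP. With 1 library left out the mtDNA-encoded share was 0.790% to 0.854%, 0.905% to 0.938%, 0.508% to 0.537% and 0.626% to 0.639% in the same order, and the nuclear share 0.276% to 0.293%, 0.284% to 0.286%, 0.391% to 0.408% and 0.362% to 0.381%.

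Some values that did not pass the threshold changed sign. For CGRP in IAIE cells these were mt-Co3 (0.048 with every gene of at least 1 count), mt-Cytb (-0.026 upper-quartile, -0.14 offsets), mt-Nd2 (-0.006533 RLE, -0.047 upper-quartile, -0.006803 with at least 10 counts, -0.005938 DESeq2, -0.003075 limma-voom, -0.034 thinned, -0.18 offsets) and mt-Nd4l (0.056 with every gene, 0.10 thinned). For CGRP in CD11c cells they were mt-Co3 (-0.086), mt-Nd1 (-0.061) and mt-Nd2 (-0.025), all with the offsets, and in the CGRP libraries mt-Nd3 (0.24 thinned). With 1 library left out, the values that changed sign spanned mt-Co3 -0.13 to 0.16, mt-Cytb -0.034 to 0.13, mt-Nd2 -0.088 to 0.15, mt-Nd4l -0.17 to 0.24 for CGRP in IAIE cells; mt-Co3 -0.062 to 0.17, mt-Nd1 -0.002027 to 0.20 for CGRP in CD11c cells; Ndufs1 -0.074 to 0.19 for the control comparison.

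When replicate numbers entered the fit as a block, nuclear calls numbered 21 in the control comparison and 9 in the CGRP libraries, and the mtDNA-encoded counts were 7 and 7. With replicate number within each treatment as a block, the nuclear counts were 20 and 9. In the control comparison Atp5e (adjusted p = 0.0563) and Atp5mpl (0.0509) were lost and Ndufv1 (0.0218) and Cox6b1 (0.0262) were gained. In the CGRP libraries Atp5d (0.0475) and Ndufb11 (0.0301) were gained.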
